A study of Mus musculus with 9 samples.

Results

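The 10 genes Fn1, Postn, Tnc, Sparc, Fbn1, Dcn, Bgn, Lum, Aspn and Vcan encode non-collagen glycoproteins and proteoglycans of the extracellular matrix. They were chosen by symbol, 10 of the 15593 gene symbols measured, as matrix genes of fibrosis, and all 10 passed the filter and were tested. RNA of mouse gastrocnemius, the large calf muscle, came from 3 groups of 3 libraries. One group was wildtype and received vehicle, one was mdx and received vehicle, and one was mdx and received GTx-026 subcutaneously at 10 mg/kg. Mdx mice model Duchenne muscular dystrophy and have a nonsense mutation of Dmd, the dystrophin gene, in every cell. By its title the study asked what androgen receptor agonists do to muscle in such models. All groups carry the strain label C57BL/6. The sources used here give no age, sex or length of treatment.

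These proteins fill and organise the space around muscle fibres. Fibronectin, periostin, tenascin-C and SPARC are adhesive or matricellular glycoproteins, which bind cells, growth factors and collagen. Fibrillin-1 builds the microfibrils that carry elastin. Decorin, biglycan, lumican and asporin are small leucine-rich proteins that sit on collagen fibrils, and versican is a large proteoglycan that binds hyaluronan. In dystrophic muscle such matrix accumulates as fibrosis, and fibroblasts and fibro-adipogenic progenitors are its main source.

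The libraries held an estimated 25.1 M to 38.0 M reads, and levels are in CPM, reads of a gene per mega-reads (M) of rescaled library. Dmd stood at 51.0 ± 9.60 CPM (SD, n = 3) in wildtype, at 18.3 ± 5.84 CPM in mdx on vehicle and at 16.5 ± 2.07 CPM in mdx on GTx-026, with no overlap of either mdx group with wildtype. Dmd fell by 1.47 (log2) in mdx vehicle and by 1.56 in mdx GTx-026 against wildtype (limma, adjusted p = 0.0468, close to the threshold of 0.05, and 0.0178). The 11 muscle fibre genes together held 157900 to 272800 CPM in every library. Libraries of a group differed in their makeup. The summed slow fibre genes ran from 1054 to 10350 CPM in wildtype, 301 to 8404 in mdx vehicle and 935 to 13550 in mdx GTx-026. The 2 lymphoid markers tested of 12 summed to 150.1 CPM in mdx vehicle library 1 and to 4.03 to 50.7 CPM in the rest. The 6 adipocyte markers tested of 8 summed to 1857 CPM in wildtype library 1, 938.5 in mdx vehicle library 3 and 1004 in mdx GTx-026 library 2, and to 109 to 343 CPM in the rest. Since no label ties a library to an animal, the spread behind each p-value is that between libraries. In bulk muscle, fewer cells of a type and less RNA per cell cannot be told apart.

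Promoter sequences are shown for the members whose mdx GTx-026 libraries all lay above every wildtype library and that the RefSeq table holds, since these are the members with separate groups. Of the 10 members 7 matched the table, with 9 promoters of 300 bases, 250 before to 50 after the start (GRCm38.p6). They are printed 5′ to 3′ on the gene's strand, with capitals on matches, in either orientation, to the short motifs described after them.
Postn, first start, chr3:54359017-54359316, plus strand: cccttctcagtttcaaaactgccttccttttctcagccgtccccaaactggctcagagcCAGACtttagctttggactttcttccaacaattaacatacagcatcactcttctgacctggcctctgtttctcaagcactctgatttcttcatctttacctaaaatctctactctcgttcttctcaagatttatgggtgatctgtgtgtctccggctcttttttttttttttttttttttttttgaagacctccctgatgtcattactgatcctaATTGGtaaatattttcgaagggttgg
Postn, second start, chr3:54360857-54361156, plus strand: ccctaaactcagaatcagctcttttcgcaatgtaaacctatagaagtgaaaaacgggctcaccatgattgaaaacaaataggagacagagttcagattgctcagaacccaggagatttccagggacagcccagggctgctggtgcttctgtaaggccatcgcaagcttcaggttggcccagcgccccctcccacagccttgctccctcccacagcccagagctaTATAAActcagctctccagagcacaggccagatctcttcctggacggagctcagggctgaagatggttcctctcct
Sparc, chr11:55420031-55420330, minus strand: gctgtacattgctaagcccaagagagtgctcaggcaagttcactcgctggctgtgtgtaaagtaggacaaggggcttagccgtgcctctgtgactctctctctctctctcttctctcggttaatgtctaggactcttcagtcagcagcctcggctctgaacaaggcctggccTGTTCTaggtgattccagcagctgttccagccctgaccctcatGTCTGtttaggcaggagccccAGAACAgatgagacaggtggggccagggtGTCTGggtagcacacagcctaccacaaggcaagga
Aspn, chr13:49544193-49544492, plus strand: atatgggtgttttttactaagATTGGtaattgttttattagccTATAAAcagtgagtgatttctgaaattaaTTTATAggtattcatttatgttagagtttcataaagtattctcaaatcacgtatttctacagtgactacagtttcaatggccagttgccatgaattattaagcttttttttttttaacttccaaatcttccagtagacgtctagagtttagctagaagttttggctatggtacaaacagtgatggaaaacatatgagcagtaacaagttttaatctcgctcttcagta
Vcan, chr13:89742463-89742762, minus strand: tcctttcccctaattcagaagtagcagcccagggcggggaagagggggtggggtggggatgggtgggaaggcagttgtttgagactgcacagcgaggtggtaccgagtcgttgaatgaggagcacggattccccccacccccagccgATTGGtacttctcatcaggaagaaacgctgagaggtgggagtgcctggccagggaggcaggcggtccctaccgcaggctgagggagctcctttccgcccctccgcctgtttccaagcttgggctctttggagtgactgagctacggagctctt

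No motif was common to all 5 sequences, and positions count from the start, negative before it. TATAAA, the letters of the TATA box, began at -26 of the second Postn start and occurred in 13.6% of the 32851 promoters in the table, both strands counted. Aspn held it at -207, and on the other strand at -178. The reverse of CCAAT, which 37.4% of all promoters hold in one orientation or the other, was found in Aspn, in Vcan and at the first Postn start. CAGAC, known from SMAD binding sites and held by 49.6% of promoters, occurred at the first Postn start and, reversed, at 2 places in Sparc. The promoters of Tnc, which are not printed, held TATAAA and, in one orientation or the other, CAGAC at both starts. AGAACA, known from androgen receptor sites and held by 19% of promoters, lay in Sparc at -14 and, reversed, at -78, and in Bgn, whose promoter is not printed, reversed at -241. TGACTCA, the AP-1 letters found in 5.2% of promoters, was in none of the 9 member promoters. The longer androgen receptor element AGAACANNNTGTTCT was also in none of the 9, and 3 promoters of the whole table held it. The Aspn sequence was 31.0% G and C and the Vcan sequence 61.0%, against a median of 52.7% over all promoters. A match in such a window is a description of its letters and not a binding site.

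Levels can be compared between genes per length, as CPM for every kb of the longest GENCODE M21 transcript. In wildtype muscle Sparc led with a mean of 95.6 CPM per kb, followed by Dcn at 45.6, Bgn at 29.0 and Lum at 9.12. Fn1 stood at 6.20, Aspn at 3.92, Fbn1 at 3.38 and Postn at 2.86 CPM per kb. Tnc at 0.449 and Vcan at 0.105 CPM per kb were the lowest. Sparc was separate from Dcn, Bgn from Lum, Postn from Tnc and Tnc from Vcan, and all the other neighbours in this order overlapped between libraries. The order depends on the lengths used, and which transcript each gene expressed was not determined. Before division by length, Sparc and Dcn overlapped in wildtype, with means of 219.9 and 213.8 CPM. Their longest transcripts are 2.3 and 4.69 kb. Sparc, Dcn, Bgn, Tnc and Vcan held the same places in the mdx groups. The middle of the order differed. Postn stood at 14.9 CPM per kb in mdx vehicle, level with Fn1 at 14.9, and at 8.89 in mdx GTx-026, where Fn1 was at 19.4 and Lum at 13.5. Neighbours among Fn1, Lum, Postn, Aspn and Fbn1 overlapped in both mdx groups.

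**Figure D1:**
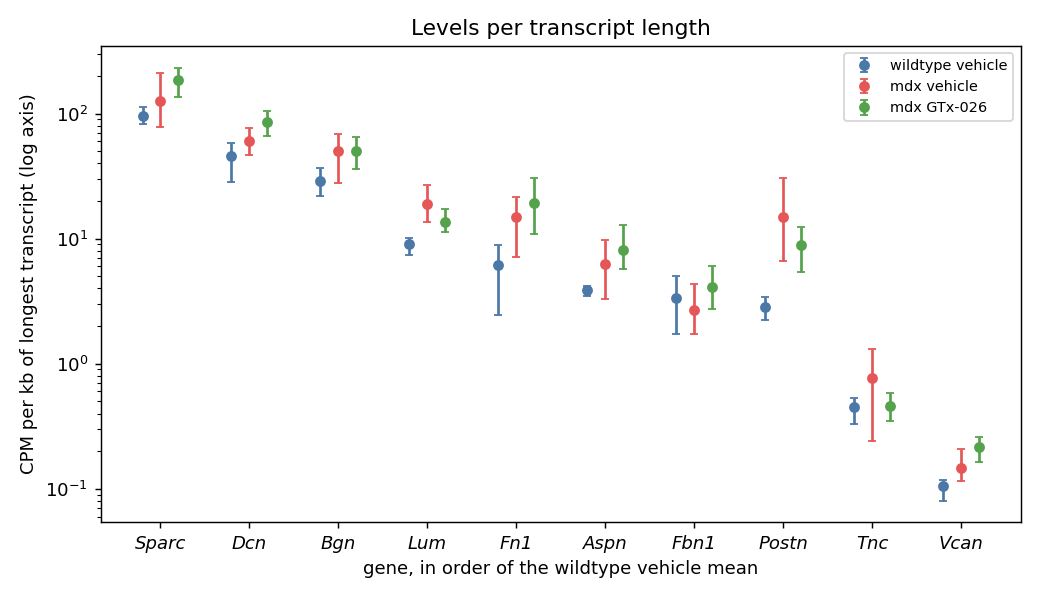
Mean CPM per kb of longest transcript on a log axis for each of the 10 genes, in order of the wildtype vehicle mean, with bars from the lowest to the highest of 3 libraries in each group. Sparc is highest in each group, at 95.6, 126.0 and 185.6 CPM per kb, and Vcan lowest, at 0.105, 0.147 and 0.216.

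Dystrophic muscle on vehicle was compared with wildtype muscle on vehicle to see how the matrix genes differ with the mdx genotype. Postn and Lum were higher in all 3 mdx vehicle libraries than in any wildtype library, and 9 of the 10 genes had a positive log2 fold change, Fbn1 being the exception. None passed the threshold of an adjusted p under 0.05 in limma, which 0.345% of all tested genes passed. At an unadjusted p under 0.05 there were 3 members, Fn1, Postn and Lum, all higher, and 6.39% of all genes passed that in the same direction. The median log2 fold change of the 10 was 0.48, against 0.01 over all 15372 tested genes, and 51.3% of those lay above 0. Groups that did not overlap, with mdx higher, were found for 2 of 10 members and 8.05% of all genes, and with mdx lower for 0 of 10 members and 8.31% of all genes. The values follow by role, with the mdx GTx-026 libraries beside them and each gene's position from RefSeq on GRCm38.p6.

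Fn1 encodes fibronectin, an adhesive glycoprotein that links integrins to collagen (chromosome 1, 71585473 to 71653280). It stood at 20.2, 74.7 and 59.6 CPM in the wildtype vehicle libraries 1 to 3, 133, 59.6 and 178 CPM in the mdx vehicle libraries, and 138, 90.6 and 256 CPM in the mdx GTx-026 libraries. The mdx vehicle library 2 lay within the wildtype range, and libraries 1 and 3 lay above it. Against wildtype the log2 fold change of mdx vehicle was 1.30 (SE 0.56, 95% interval 0.05 to 2.55, limma adjusted p = 0.382). Postn encodes periostin, a matricellular protein that binds collagen and fibronectin (chromosome 3, 54359267 to 54391041). Its level was 18.0, 15.2 and 11.7 CPM in the wildtype vehicle libraries 1 to 3, 38.1, 34.9 and 160.3 CPM in the mdx vehicle libraries, and 28.5, 46.2 and 64.5 CPM in the mdx GTx-026 libraries. All 6 mdx libraries were above all 3 wildtype libraries, and the mdx vehicle library 3 was far above the rest of its group. The log2 fold change of Postn in mdx vehicle was 1.95 (SE 0.52, 95% interval 0.78 to 3.13, limma adjusted p = 0.191), the largest of the 10.

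Tnc encodes tenascin-C, a matricellular protein of developing and injured tissue (chromosome 4, 63959785 to 64047015). It was low throughout, with 2.34, 3.40 and 3.81 CPM in the wildtype vehicle libraries 1 to 3, 5.54, 1.72 and 9.27 CPM in the mdx vehicle libraries, and 2.50, 3.23 and 4.11 CPM in the mdx GTx-026 libraries. The mdx vehicle group held both the lowest and the highest of the 9 libraries. Its log2 fold change was 0.46 (SE 0.41, limma adjusted p = 0.658). Sparc encodes SPARC, also called osteonectin, a collagen-binding matricellular protein (chromosome 11, 55394159 to 55420080). The values for Sparc were 214, 188 and 258 CPM in the wildtype vehicle libraries 1 to 3, 179, 204 and 486 CPM in the mdx vehicle libraries, and 429, 314 and 537 CPM in the mdx GTx-026 libraries. The mdx vehicle library 3 stood well above wildtype, library 2 lay within the wildtype range and library 1 just under it. For Sparc the log2 fold change was 0.26 (SE 0.36, limma adjusted p = 0.776), and without the mdx vehicle library 3 it was -0.19.

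Fbn1 encodes fibrillin-1, the main protein of microfibrils (chromosome 2, 125300594 to 125506485). Fbn1 was measured at 20.6, 59.7 and 41.2 CPM in the wildtype vehicle libraries 1 to 3, 20.6, 23.5 and 51.7 CPM in the mdx vehicle libraries, and 41.0, 32.6 and 72.8 CPM in the mdx GTx-026 libraries. The 3 groups overlapped, with the mdx vehicle libraries 1 and 2 near the lowest wildtype library. Fbn1 had a log2 fold change of -0.33 (SE 0.45, limma adjusted p = 0.775), and without the wildtype library 2 it was 0.006.

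Dcn encodes decorin, which binds collagen fibrils and TGF-beta (chromosome 10, 97479500 to 97518163). Decorin reads came to 134, 274 and 234 CPM in the wildtype vehicle libraries 1 to 3, 218, 276 and 361 CPM in the mdx vehicle libraries, and 411, 314 and 492 CPM in the mdx GTx-026 libraries. One wildtype library was low, and the rest overlapped the mdx vehicle group. Its log2 fold change was 0.45 (SE 0.29, limma adjusted p = 0.55). Lum encodes lumican, which limits the width of collagen fibrils, and lies close to Dcn (chromosome 10, 97565501 to 97572703). Its libraries read 24.6, 24.2 and 18.1 CPM in the wildtype vehicle libraries 1 to 3, 33.5, 39.4 and 65.4 CPM in the mdx vehicle libraries, and 27.6, 29.2 and 42.2 CPM in the mdx GTx-026 libraries. Every mdx library was above every wildtype library, and mdx vehicle library 3 was again the highest. Lum had a log2 fold change of 0.97 in mdx vehicle (SE 0.26, 95% interval 0.39 to 1.55, limma adjusted p = 0.191).

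Bgn encodes biglycan, a close relative of decorin known to bind the dystrophin-associated complex at the fibre surface (chromosome X, 73483601 to 73495936). Biglycan reads were 58.6, 74.6 and 98.4 CPM in the wildtype vehicle libraries 1 to 3, 142, 74.2 and 185 CPM in the mdx vehicle libraries, and 96.5, 133 and 173 CPM in the mdx GTx-026 libraries. The mdx vehicle library 2 matched the wildtype middle, and libraries 1 and 3 exceeded all wildtype libraries. The log2 fold change was 0.72 (SE 0.34, 95% interval -0.05 to 1.48, limma adjusted p = 0.419). Aspn encodes asporin, a leucine-rich protein that lacks attached glycosaminoglycan chains (chromosome 13, 49544443 to 49567565). It was found at 8.14, 9.56 and 9.68 CPM in the wildtype vehicle libraries 1 to 3, 7.63, 13.4 and 22.7 CPM in the mdx vehicle libraries, and 13.6, 13.3 and 30.2 CPM in the mdx GTx-026 libraries. Wildtype libraries were close together, and the mdx vehicle libraries spread from under to well over them. A log2 fold change of 0.50 was fitted (SE 0.38, limma adjusted p = 0.603). Vcan encodes versican, the hyaluronan-binding proteoglycan (chromosome 13, 89655309 to 89743027). Versican had the lowest values, 1.00, 1.44 and 1.47 CPM in the wildtype vehicle libraries 1 to 3, 1.46, 1.42 and 2.58 CPM in the mdx vehicle libraries, and 3.23, 2.04 and 2.78 CPM in the mdx GTx-026 libraries, and its lowest value rested on an estimated 29 reads. The mdx vehicle libraries 1 and 2 lay within the wildtype range. Vcan gave a log2 fold change of 0.27 (SE 0.19, limma adjusted p = 0.58).

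**Figure D2:**
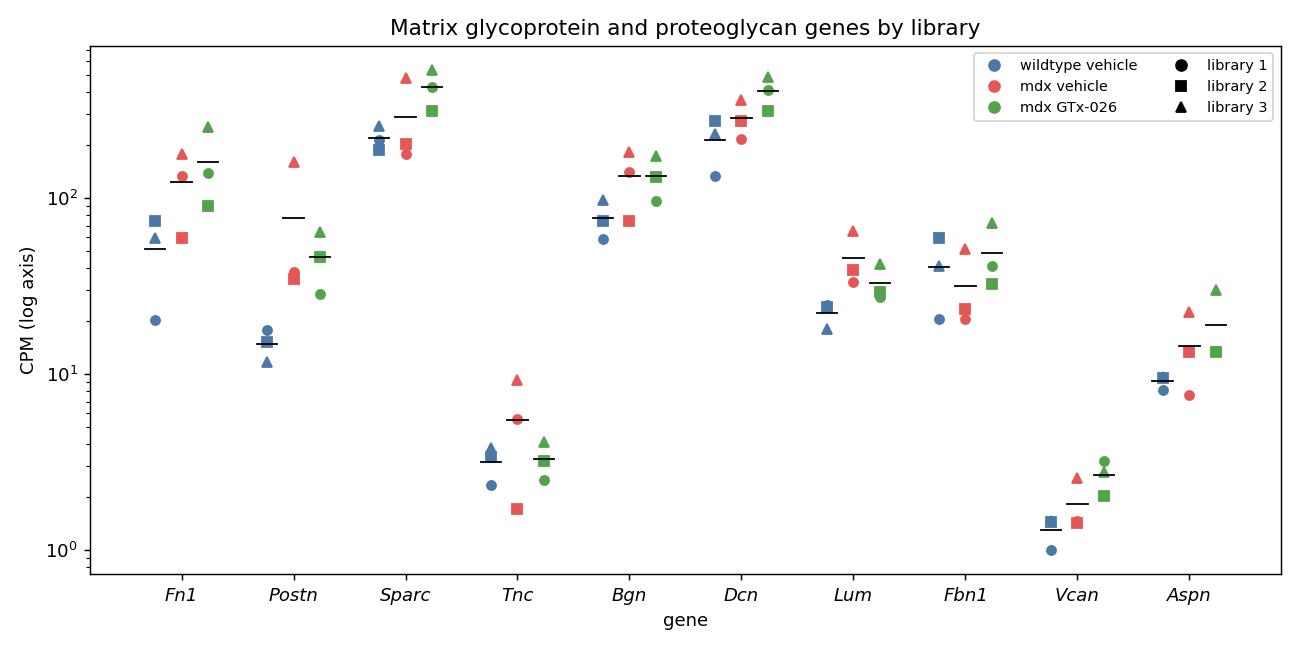
CPM on a log axis for the 10 genes in each of the 9 libraries, coloured by group, with marker shape for the library number and a black line at each group's mean. For Postn and Lum all mdx points lie above all wildtype points, and library 3 is the highest mdx vehicle point for all 10 genes.

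The effect of GTx-026 was read from mdx muscle with the drug against mdx muscle on vehicle. No member's groups were separate. Sparc, Dcn, Fbn1, Vcan, Aspn and Fn1 had higher means with the drug, by amounts within the spread of the libraries. Postn, Lum and Tnc had lower means, and the means of Bgn were close. None of the 10 passed in limma, at either an adjusted or an unadjusted p under 0.05. Over all genes 0.013% passed the adjusted threshold and 3.07% the unadjusted one, of which 1.74% were higher. Separate groups were found for 3.35% of all genes with the drug group higher and for 3.54% with it lower. The members' median was 0.39 (log2), with 7 of 10 above 0, against -0.01 over all genes and 48.0% above 0.

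Among the glycoproteins, Sparc was at 289.8 ± 170.3 CPM (SD, n = 3) on vehicle and 427 ± 111 CPM on GTx-026. Its log2 fold change was 0.67 (95% interval -0.12 to 1.47). Every Sparc library on the drug exceeded the mean on vehicle, but the highest vehicle library lay inside the drug group's range. Postn was at 77.8 ± 71.4 CPM on vehicle and 46.4 ± 18.0 CPM on GTx-026, a log2 fold change of -0.44 (95% interval -1.61 to 0.74). That sign rested on the mdx vehicle library 3, since without it the value was 0.26. Fn1 differed by 0.39 (95% interval -0.86 to 1.64), Tnc by -0.42 (95% interval -1.34 to 0.50) and Fbn1 by 0.63 (95% interval -0.38 to 1.65). All of these intervals include 0 and are wide, so they do not show that the drug left these genes alike.

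Among the proteoglycans, Dcn was at 285 ± 71.8 CPM on vehicle and 406 ± 89.3 CPM on GTx-026, a log2 fold change of 0.51 (95% interval -0.15 to 1.17). Lum lay on the other side, with 46.1 ± 17.0 and 33.0 ± 8.04 CPM and a log2 fold change of -0.44 (95% interval -1.02 to 0.14). Its drug libraries were all under the vehicle mean, yet drug library 3 exceeded vehicle libraries 1 and 2. Vcan was at 1.82 ± 0.654 and 2.68 ± 0.602 CPM, with a log2 fold change of 0.40 (95% interval -0.04 to 0.83). Bgn differed by 0.06 (95% interval -0.70 to 0.83) and Aspn by 0.38 (95% interval -0.48 to 1.25). All 10 members had an adjusted p of 0.9999 in this comparison.

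Treated mdx muscle was also set against wildtype, in a comparison that shares its groups with the others and so adds no independent view of either. For 7 of the 10 genes, Fn1, Postn, Sparc, Dcn, Lum, Vcan and Aspn, all 3 mdx GTx-026 libraries were above all 3 wildtype libraries, as they were for 11.0% of all genes. None passed the adjusted threshold in limma, which 1.56% of all genes passed, 1.06% being higher. Separate groups with mdx GTx-026 lower were found for 0 members and 9.91% of all genes. At an unadjusted p under 0.05 there were 7 members, all higher, against 7.01% of all genes in that direction. The median log2 fold change was 0.84, with 10 of 10 above 0, beside -0.01 and 48.1% over all genes.

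Fn1 had the largest value there, 1.69 (SE 0.56, 95% interval 0.44 to 2.94, adjusted p = 0.224), and Postn followed at 1.52 (SE 0.52, 95% interval 0.34 to 2.69, adjusted p = 0.246). Dcn was at 0.96 (SE 0.29, adjusted p = 0.183) and Sparc at 0.93 (SE 0.36, adjusted p = 0.302). Vcan, at 0.67 (SE 0.19), had the smallest adjusted p of the 10, 0.158 in limma. Of the other genes whose products sit on collagen fibrils, Aspn was at 0.89 (SE 0.38), Bgn at 0.78 (SE 0.34) and Lum at 0.53 (SE 0.26). Bgn missed separation by a small margin, its lowest treated library being at 96.5 CPM and its highest wildtype library at 98.4 CPM. Fbn1 at 0.30 (SE 0.45) and Tnc at 0.03 (SE 0.41) overlapped with wildtype.

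**Figure D3:**
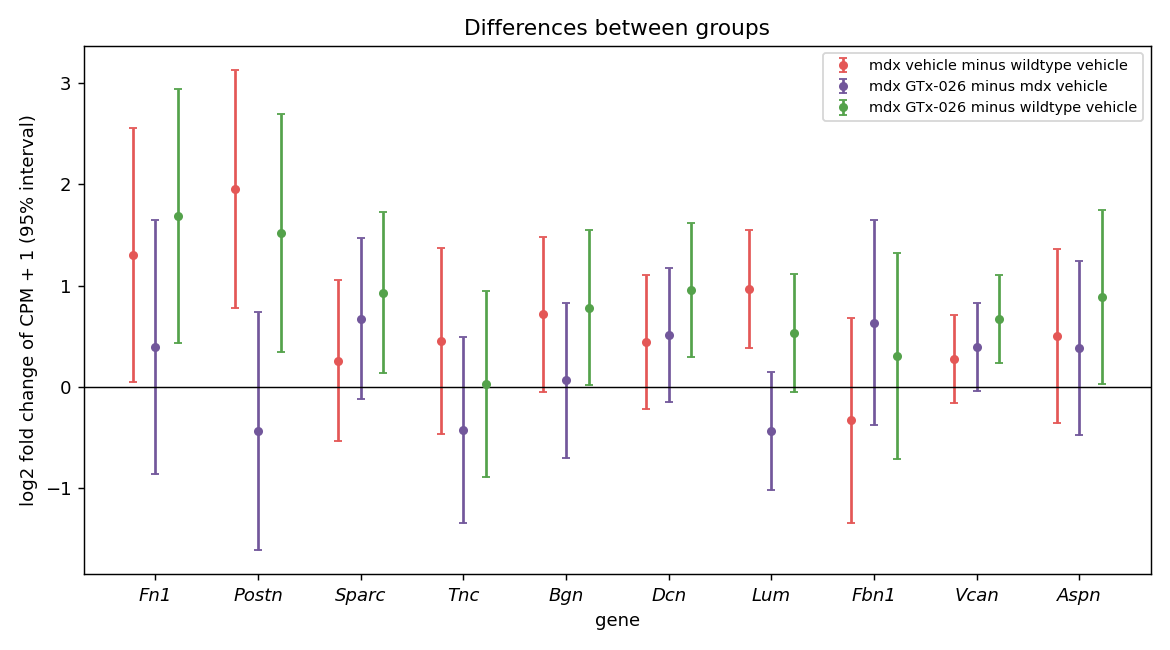
Log2 fold change of CPM + 1 with its 95% interval from limma for each of the 10 genes in the 3 comparisons. In mdx GTx-026 against mdx vehicle every interval includes 0, and in mdx GTx-026 against wildtype vehicle 7 intervals lie above 0, from Fn1 at 1.69 to Vcan at 0.67.

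Within both mdx groups nearly all of the 10 genes were highest in the same library, while the lowest library differed between genes. The mdx vehicle library 3 was the highest of its group for 10 of 10 genes, and the mdx GTx-026 library 3 for 9 of 10, Vcan being the exception. In mdx vehicle the lowest was library 1 for 5 genes and library 2 for 5, and in mdx GTx-026 library 1 for 4 and library 2 for 6. In wildtype, library 1 was the lowest for 7 of 10, and the highest was library 1 for 2, library 2 for 3 and library 3 for 5. The summed CPM of the 10 was 502, 725 and 735 in wildtype, 779.7, 728.5 and 1521 in mdx vehicle, and 1192, 978 and 1674 in mdx GTx-026. So the mdx vehicle libraries 1 and 2 were close to wildtype in sum and library 3 was far above. Without the mdx vehicle library 3 the members' median against wildtype was 0.20 in place of 0.48, and that of GTx-026 against mdx vehicle was 0.64 in place of 0.39. Without the mdx GTx-026 library 3 the latter was 0.005.

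Markers of several cell types, matrix-forming cells among them, were also highest in library 3 of both mdx groups by the median. Of 15 fibroblast and fibro-adipogenic progenitor markers 12 were tested, and Lamp5, Tcf21 and Twist2 were not used here. Their median log2 difference from the wildtype mean was -0.11, 0.21 and 0.75 in mdx vehicle libraries 1 to 3 and 0.66, 0.54 and 1.03 in mdx GTx-026. Summed, they ran from 909.6 to 1074 CPM in wildtype, 758 to 1611 in mdx vehicle and 1499 to 2222 in mdx GTx-026. The 9 tendon cell markers tested of 11, Kera and Ptx4 not being used here, had medians of -1.14, 0.51 and 0.70 in wildtype, -0.19, -0.50 and 1.31 in mdx vehicle, and -0.14, -0.07 and 0.84 in mdx GTx-026. Their sum ran from 60.4 to 272 CPM in wildtype, 153 to 498 in mdx vehicle and 180.3 to 380.3 in mdx GTx-026. The library lowest in tendon markers, wildtype 1, was the lowest for 7 of the matrix genes, and by the medians library 3 of each mdx group was the highest of its group for both marker lists. By the sums this held for the tendon markers in both groups and for the fibroblast markers in mdx vehicle, while in mdx GTx-026 library 1 had the highest fibroblast sum, 2222 CPM against 2042 in library 3.

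The 13 macrophage markers tested of 14 had medians of 1.58, 0.37 and 1.67 in mdx vehicle and 1.72, 1.44 and 1.96 in mdx GTx-026. They summed to 58.2 to 148 CPM in wildtype, 153 to 1060 in mdx vehicle and 415 to 641 in mdx GTx-026. The 11 muscle fibre genes had medians of -0.66, -0.14 and -0.36 in mdx vehicle and 0.14, -0.23 and -0.62 in mdx GTx-026. Endothelial markers had medians of -0.576, -0.48 and 0.022 in mdx vehicle and -0.555, -0.458 and 0.178 in mdx GTx-026. Smooth muscle and pericyte markers had -0.655, -0.162 and 0.392, then 0.036, -0.169 and 0.373. By the median, library 3 was thus also the highest of each mdx group for macrophage, endothelial and smooth muscle markers. Schwann cell and adipocyte markers were highest there in mdx vehicle only, and lymphoid markers in neither group. By the sum, macrophage markers in mdx vehicle were highest in library 1, at 1060 CPM against 559.5 in library 3. The part of fibroblast, tendon, macrophage, vascular and fibre content in the matrix gene differences was not tested.

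**Figure D4:**
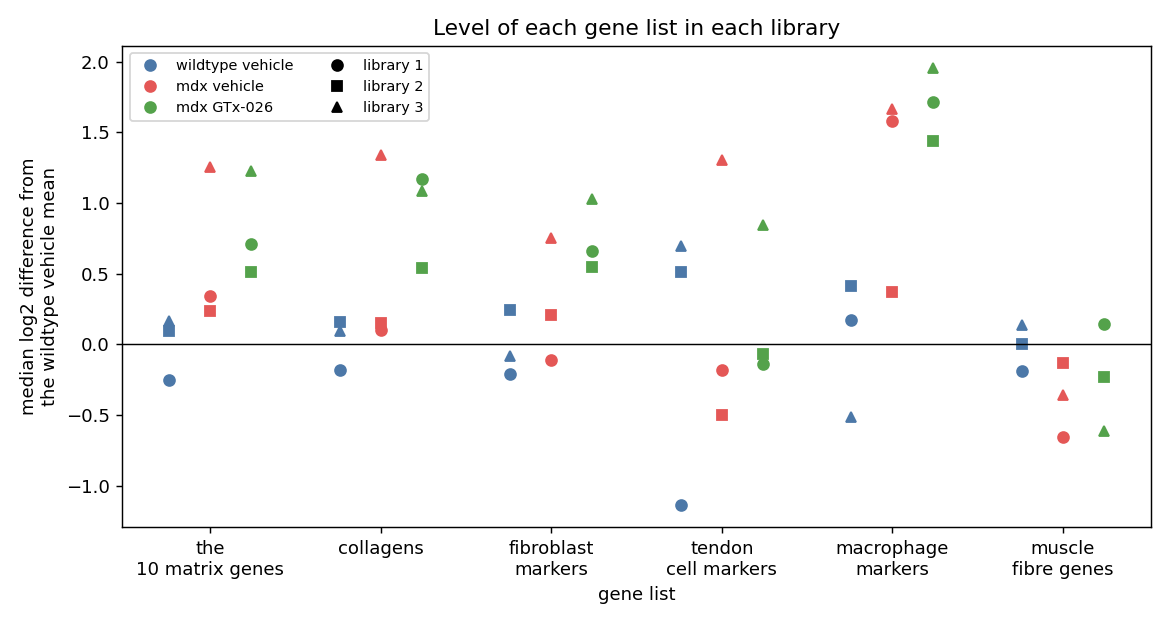
Median log2 difference from the wildtype vehicle mean in each of the 9 libraries, for the 10 matrix genes, the collagens, and markers of fibroblasts, tendon cells, macrophages and muscle fibres. The mdx vehicle library 3 is at 1.25 for the matrix genes, 1.34 for the collagens and 1.31 for the tendon markers.

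Shares of the summed CPM show how the mix of the 10 genes differed, apart from its total. Sparc and Dcn made up most of it in each group, with means of 34.6% and 32.1% in wildtype, 27.7% and 29.9% in mdx vehicle, and 33.4% and 32.0% in mdx GTx-026. Postn took 3.58%, 2.09% and 1.59% in wildtype, 4.89%, 4.79% and 10.5% in mdx vehicle, and 2.39%, 4.72% and 3.85% in mdx GTx-026. Its mdx vehicle shares were above all of the others. Lum took 4.30%, 5.41% and 4.30% in mdx vehicle and 2.31%, 2.99% and 2.52% in mdx GTx-026, with no overlap of these groups. Its wildtype shares, 4.91%, 3.345% and 2.463%, overlapped both. Against wildtype Fbn1 went the other way from Postn, with 4.11%, 8.24% and 5.60% in wildtype and 2.64%, 3.22% and 3.40% in mdx vehicle. Shares of a fixed sum depend on one another, so these are descriptions without a test.

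**Figure D5:**
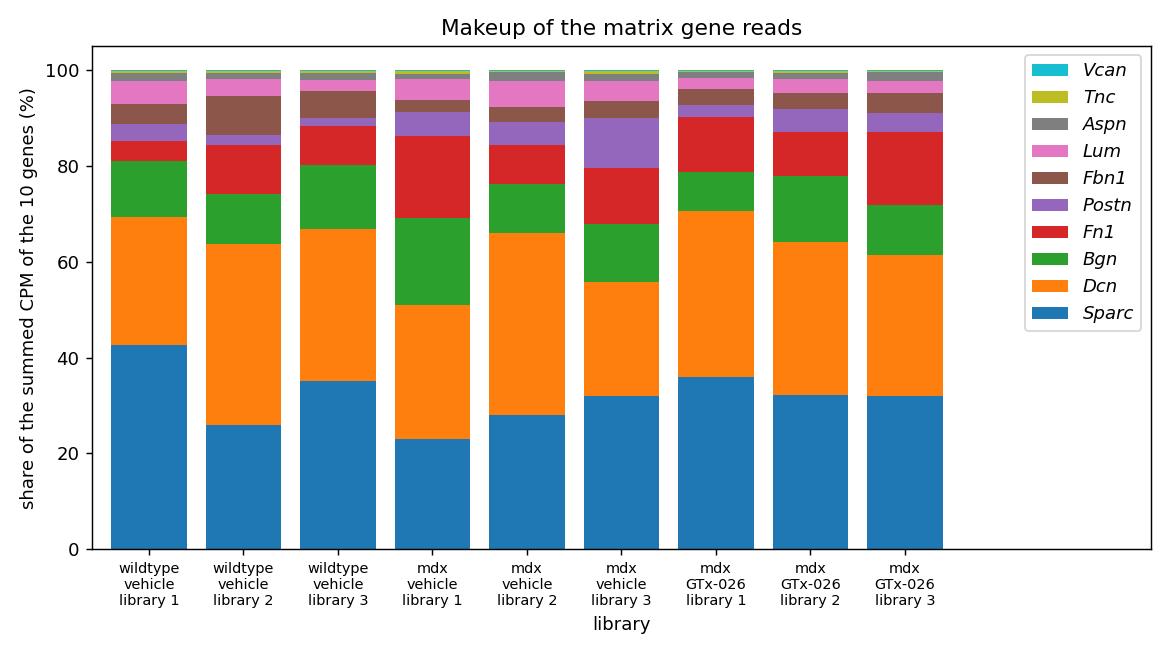
Stacked bars of the percent that each of the 10 genes takes of their summed CPM in each of the 9 libraries. Sparc and Dcn fill the largest parts in every library, and Postn is largest in mdx vehicle library 3, at 10.5%.

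Lum and Dcn, neighbours on chromosome 10, were singled out after their values were seen, because they differed in opposite directions with the drug. Lum came to 15.4%, 14.3% and 18.1% of Dcn in mdx vehicle and to 6.70%, 9.32% and 8.59% in mdx GTx-026. The ranges were separate, and the difference in the log2 ratio of Dcn to Lum was 0.96, given as a description with no test, since the pair was chosen on these values. The pair was not alone, as 8 of the 45 pairs of members were separate in this comparison. Some of the 8 differed more, such as Sparc to Lum at 1.12 and Lum to Fbn1 at -1.10. In each of the other comparisons 11 of the 45 pairs were separate. With 3 libraries against 3 the smallest exact permutation p is 0.1, and the pairs share genes, so such counts are descriptions. In wildtype Lum came to 18.3%, 8.86% and 7.76% of Dcn, which overlapped both mdx groups.

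Related genes were counted in lists set by role. The adjusted threshold was passed by 0.345%, 0.013% and 1.56% of all tested genes in the 3 comparisons, in the order given above. Of 8 other small leucine-rich genes tested, Podn, which encodes podocan, rose against wildtype, from 10.7 ± 1.10 CPM (SD, n = 3) to 25.6 ± 3.85 in mdx vehicle (log2 fold change 1.17, limma adjusted p = 0.022) and 25.5 ± 1.64 in mdx GTx-026 (1.18, adjusted p = 0.00721). The first call was lost without wildtype library 2 or 3, mdx vehicle library 3 or mdx GTx-026 library 2, with the highest record only and in the 2-group model, with adjusted p up to 0.115. The list's medians were 0.15, 0.23 and 0.46 in the 3 comparisons, in the order given above, and no other of its members passed.

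Of 28 other matricellular and adhesive genes tested, none passed in limma between mdx vehicle and wildtype or with the drug, where 9 and 3 had an unadjusted p under 0.05 (8 and 3 of them higher), and 4 rose in mdx GTx-026 against wildtype. They were Thbs3, a thrombospondin (1.54, limma adjusted p = 0.025), Ccn5, listed as Wisp2, of the CCN family (1.47, adjusted p = 0.0396), Cilp, a secreted matrix protein of cartilage and fibroblasts (2.30, adjusted p = 0.0414), and Ecm1, a secreted glycoprotein (1.5, adjusted p = 0.0142). Cilp went from 38.7 ± 28.8 CPM in wildtype to 171 ± 54.7 in mdx vehicle and 172 ± 54.6 in mdx GTx-026. Each call was lost in several of the settings that left out 1 library, though all 4 genes were separate and higher in mdx GTx-026 than in wildtype. Thbs3 lost it without any wildtype library or mdx GTx-026 library 1 or 3 (adjusted p up to 0.101), and Ccn5 without any wildtype library, mdx GTx-026 library 1, or either of mdx vehicle libraries 2 and 3, and also with pseudocount 5 and in the 2-group model (up to 0.14). Cilp lost it without wildtype library 2 or 3 or any mdx GTx-026 library (up to 0.177), and Ecm1 without wildtype library 2 or any mdx GTx-026 library (up to 0.0657). The list had medians of 0.51, 0.10 and 0.53, and 8, 3 and 11 of its 28 genes were separate and higher. Over all genes 8.05%, 3.35% and 11.0% were separate and higher. Those higher at an unadjusted p under 0.05 were 6.39%, 1.74% and 7.01% of all genes.

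Elastic fibre and microfibril genes other than Fbn1 gave 22 tested and a single rise, that of Fbln7, which encodes a fibulin, in mdx GTx-026 against wildtype (2.14, limma adjusted p = 0.0142). Among 15 proteases and inhibitors that act on these proteins, Adamts5, which cuts versican, rose from 10.6 ± 1.34 CPM in wildtype to 36.3 ± 3.20 in mdx GTx-026, with 26.3 ± 9.32 in mdx vehicle. Its log2 fold change was 1.68 (limma adjusted p = 0.00794), and it passed in 19 of 19 alternative settings, as Podn did in that comparison. For both genes the limma adjusted p reached up to 0.0473 in those settings, close to the threshold of 0.05. Fbln7 lost the call without either of wildtype libraries 2 and 3, or of mdx GTx-026 libraries 1 and 3 (adjusted p up to 0.0684). In the 3 comparisons the medians were 0.32, 0.14 and 0.54 for the elastic fibre genes, 0.13, 0.44 and 0.54 for the 15 basement membrane genes tested, and 0.32, 0.29 and 0.57 for the proteases.

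No call was made in any comparison in limma among 12 collagens or 21 receptors of the members or of collagen. Nor was any made among 25 genes of glycosaminoglycan chain synthesis or 10 of hyaluronan and chondroitin sulfate matrix. At an unadjusted p under 0.05 the collagens had 2, 0 and 9 in the 3 comparisons, the receptors 7, 1 and 7, chain synthesis 1, 0 and 3, and hyaluronan matrix 1, 0 and 2, all higher save 1 of the last. Of all genes 6.39%, 1.74% and 7.01% were higher at that unadjusted level. Separate and higher were 8.05%, 3.35% and 11.0% of all genes, and separate and lower 8.31%, 3.54% and 9.91%. The collagens had medians of 0.58, 0.45 and 0.92, with 3, 0 and 9 of 12 separate and higher. Receptors had 0.29, 0.06 and 0.44, with 5, 0 and 12 of 21 separate and higher and 1, 1 and 1 separate and lower. They include integrins and also the collagen receptors Ddr1 and Ddr2. Chain synthesis genes, which build the sugar chains of Dcn, Bgn and Vcan, had 0.24, 0.02 and 0.16, with 1, 0 and 4 of 25 separate and higher and 0, 1 and 0 separate and lower. The genes that go with versican in hyaluronan matrix had 0.05, -0.03 and 0.01, with 1, 0 and 2 of 10 separate and higher and 0, 1 and 1 separate and lower. Of the fibroblast markers Pdgfra and Cxcl14 rose in mdx GTx-026 against wildtype (1.10 and 1.81, limma adjusted p = 0.0317 and 0.0142). Macrophage markers were called as well. Lgals3 rose in mdx vehicle (3.81, limma adjusted p = 0.0321) and in mdx GTx-026 (3.79, adjusted p = 0.0159) against wildtype. C1qc rose in mdx GTx-026 against wildtype (1.92, limma adjusted p = 0.0461). How far these marker calls depend on single libraries is not given here.

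Genes with the most similar profiles over the 9 libraries are given by Pearson's r on log2 values, as a description, since libraries share their depth and makeup. For the mean of the 10 members the closest of 10335 genes were Nisch (r = 0.969), Ptgfrn (0.968), Col1a1 (0.965) and Stard9 (0.963), then Lima1, Serpinf1, Ddr2 and Plxdc2, at 0.957 to 0.962, with Spearman's rho of 0.85 to 0.95 over these 8. Col1a1 encodes a chain of collagen I and Ddr2 a collagen receptor. Postn and Lum were closest to each other, at 0.950. Dcn was closest to Map1a (0.987), Myoc (0.981) and Ogn (0.979), of which Ogn is another small leucine-rich gene. Vcan was closest to the collagen VI genes Col6a2 (0.985) and Col6a1 (0.974) and to Nid2 (0.980), which encodes nidogen-2. Sparc was closest to Cspg4 (0.970), Slc44a1 (0.965) and Ltbp1 (0.961), and Aspn to Cyfip1 (0.974), Eln (0.971), the elastin gene, and Bcam (0.966). Fn1 was closest to Emp1 (0.978), Bgn to Arhgdia (0.964), Fbn1 to Dnajc5 (0.963) and Tnc to Erf (0.943).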

How the data were processed

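Polyadenylated RNA of 9 gastrocnemius samples was sequenced on an Ion Torrent Proton, per the labels' protocols. The submitters' processing notes name the build GRCm38.p3 and DESeq2 1.6.3, HTSeq 0.6.1p1, TopHat2 2.0.13 with Bowtie2 2.2.4, and SAMtools 0.1.19. Which step each did, which annotation was counted and whether strand was used is stated in no source used here, so overlapping or antisense genes could not be told apart. The deposited signal is a scaled read number for each of 46442 sequence records. Dividing by 1 step per library gave numbers within 0.1 of a whole read for all values below 10000, and reads were estimated in that way. The authors' ratio of group means and the authors' p-value for each pair of groups, named so per the file headers, were used only as values. Columns name a group and not a sample, and the numbers pair nothing.

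Records above 0 in all 9 libraries were summed by symbol, which gave 15372 tested genes of 15593. Left out were 4 records with no symbol, 0.000646% of the total. A trimmed mean of log ratios (30% and 5% trimmed) rescaled the libraries, with factors of 0.868 to 1.28. The test was limma 3.58.1 (R 4.3.3) on log2(CPM + 1), with the prior variance trended on level and 3 group means over all 9 libraries, leaving 6 residual degrees of freedom beside 3.58 from the prior. Two-sided p-values were adjusted for all tested genes after Benjamini and Hochberg, with a threshold of 0.05. Fold changes on this scale understate those of low genes. The fit was tested on simulated data.

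The members and lists were chosen with earlier results of these data known. All members were named, and of each list the genes past the adjusted threshold, and up to 3 others with the smallest p, except for a result that is not reported here. For likeness, genes at a mean of 5 CPM or more were ranked by r. Promoters are from RefSeq (GRCm38.p6). Alternatives were other scalings, pseudocounts, filters, records, models and weights, and leaving out each library.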

Additional observations from a re-analysis of the deposited data

How the results depend on the processing

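Over 19 alternatives no member passed the threshold in mdx GTx-026 against mdx vehicle. Library weights were 0.31, 0.7486 and 1.599 for mdx vehicle libraries 1 to 3. Within that group they thus leaned most on library 3, the highest of the group for every member. With these weights 2 members passed in mdx vehicle against wildtype, Postn (2.58, limma adjusted p = 0.0345) and Lum (1.25, adjusted p = 0.0349). In mdx GTx-026 against wildtype 1 passed, Postn (1.52), with only the 2 groups compared (adjusted p = 0.0376) and without mdx vehicle library 3 (adjusted p = 0.0386). Leaving out 1 library, the number past the threshold ran from 0 to 0, 0 to 0 and 0 to 1 in the 3 comparisons, and the members' median from 0.201 to 0.744, 0.005 to 0.638 and 0.613 to 0.949. With library weights, lowest (0.31) for mdx vehicle library 1, the median for GTx-026 against mdx vehicle was -0.001.

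Signs turned for these members, given as their range when 1 library is left out. In mdx vehicle against wildtype, Sparc ran from -0.188 (without mdx vehicle library 3) to 0.528 and Fbn1 from -0.739 to 0.006 (without wildtype library 2). For GTx-026 against mdx vehicle, Fn1 ran from -0.06 (without mdx vehicle library 2, and -0.003 without mdx GTx-026 library 3) to 0.74, and Bgn from -0.308 (without mdx vehicle library 2, and -0.139 without mdx GTx-026 library 3) to 0.343. Postn ran from -0.819 to 0.264 and Tnc from -0.955 to 0.004, both highest without mdx vehicle library 3. For GTx-026 against wildtype, Tnc ran from -0.123 to 0.168 and Fbn1 from -0.105 to 0.64, both lowest without wildtype library 1, and without mdx GTx-026 library 3 they were -0.105 and -0.021. Library weights gave -0.12 for Bgn and -0.077 for Aspn with the drug, and -0.084 for Tnc and -0.069 for Fbn1 in mdx GTx-026 against wildtype. The cause was not tested.

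All genes past the threshold numbered 53 between mdx vehicle and wildtype, with 6 in the 2-group model and 336 with no filter. For the drug there were 2, with 0 to 95, and for mdx GTx-026 against wildtype 240, with 50 to 887. With the deposited scaling the median of all genes in mdx vehicle against wildtype was 0.15, and the members' was 0.638. The count-model test was not run, since reads recovered from the scaled signal were not accepted as counts. No paired analysis was possible because the sample titles share no replicate number between groups and no label says that the column numbers 1 to 3 pair libraries. The fewest reads lay behind Vcan, an estimated 29 to 110 in a library, and Tnc, 58 to 288.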

Other observations

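Each member is spread over 1 to 10 records in the deposited table. Fn1 had 10 records, each with 8.35% to 12.2% of the gene's signal in any library, and Postn had 6, each with 11.0% to 24.1%. Fbn1 was the least even, with 4 records of which 1 held 5.68% to 14.5%. Records were not tied to isoforms here.

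In the authors' deposited table the p-values, which are not adjusted, were 0.000770 and 0.0648 for the 2 Vcan records between wildtype and mdx GTx-026. For Dcn in the same comparison the authors' deposited table gives 0.0448 and 0.0503. Of the 30 sets of a member and a pair of groups in the authors' deposited table, these 2 held a p-value under 0.05 and the rest held none, for example Postn at 0.0902 to 0.144 and Fn1 at 0.138 to 0.179 between wildtype and mdx GTx-026.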
